A study of Mus musculus with 32 samples.

Results

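The ERK feedback genes are a set of 10 genes, of 24421 genes in the deposited tables, that ERK signalling switches on and whose products mostly restrain it. They were taken by name from all 32 single-cell tables, after the barcodes that the authors listed as feeder cells had been dropped. The set holds 3 dual-specificity phosphatase genes (Dusp4, Dusp5 and Dusp6), 3 Sprouty genes (Spry1, Spry2 and Spry4), 2 Sprouty-related genes (Spred1 and Spred2) and 2 genes of ETS transcription factors (Etv4 and Etv5). Of the 10 genes, 9 passed the filter on low counts and were tested, and Dusp5 is given as counts only.

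Growth factors such as the FGFs act through receptor tyrosine kinases, which pass the signal to RAS, RAF, MEK and ERK in turn. Active ERK induces its own brakes. Dusp4, Dusp5 and Dusp6 encode phosphatases that take the activating phosphates off ERK, Dusp6 mainly in the cytoplasm and Dusp4 and Dusp5 in the nucleus. Sprouty and Spred proteins act further up, between the receptors and RAF. Etv4 and Etv5 encode closely related factors that carry the transcriptional response to FGF and are themselves induced by it. In mouse embryonic stem cells, FGF4 made by the cells keeps ERK active and favours exit from the naive state.

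The study followed mouse embryonic fibroblasts (MEFs) as they were reprogrammed with doxycycline (2 ug/mL) on irradiated feeder MEFs, in a medium with LIF and fetal bovine serum (15%), and compared them with V6.5 embryonic stem cells (ESCs). The labels do not name the MEFs' genotype, the reprogramming factors or the dose of 2i. The groups called FBS had no small molecule and were sampled at days 3, 6, 9 and 12. A2S held ascorbic acid (50 ug/mL), 2i and SGC0946 (5 uM), an inhibitor of the histone methyltransferase DOT1L, and was sampled at days 2, 4 and 6. The 2i pair, added 12 h after the others, joins PD-0325901, which inhibits MEK, the kinase directly above ERK, to CHIR-99021, which inhibits GSK3 and so mimics Wnt signalling. From A2S, A2 left out SGC0946, S2 left out ascorbic acid and AS left out 2i, each sampled at days 4 and 6. Untreated MEFs, ESCs without small molecules and ESCs in A2S (labelled day 2, with no doses given) complete the 16 groups of 2 libraries. A2S, A2, S2 and the ESCs in A2S thus make 8 groups with 2i and the others 8 without, and AS differs from A2S by 2i alone. The effects of the MEK inhibitor and of the GSK3 inhibitor cannot be told apart, because they were always given together. For ESCs, A2S was the only medium with small molecules. The parts of ascorbic acid, 2i and SGC0946 in ESCs thus cannot be told apart either.

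The 7650 kept cells came as 138 to 431 per library, with 1727490 to 8848775 UMIs (unique molecular identifiers, 1 per captured transcript) per library and a median of 5240 to 23194.5 UMIs per cell. Levels below are UMIs summed over the cells of a library and scaled to its total with TMM factors (CPM), and a fold change is a difference of log2 levels ± its standard error (SE). A gene was called at an adjusted p under 0.05 in edgeR's quasi-likelihood test, with Benjamini-Hochberg adjustment over 13229 genes. Nothing in the labels ties the 2 libraries of a group to different cultures. The p-values then measure only the spread between these libraries, which may be technical. In summed counts, fewer cells that use a gene and less RNA per cell cannot be told apart. Where the libraries of 2 single groups are said not to overlap, this only describes their values. With 2 libraries a group, genes can separate by chance, and the share of all genes that did so is not given. Of the barcodes, 34 occurred in more than 1 library, on 56 kept cells. The cell types matched their labels: the summed level of 10 fibroblast markers was 11375 to 12319 CPM in MEFs and 18.7 to 22.6 CPM in ESCs, and that of 10 pluripotency markers was 0.332 to 1.94 CPM in MEFs and 4887 to 4986 CPM in ESCs. Cell makeup moved with the media. Cells with a UMI of Epcam or Nanog, which mark epithelial and pluripotent cells, made up 71.7% to 81.7% of A2S day 6, 51.0% to 58.2% of S2 day 6, 27.1% to 30.0% of AS day 6, 11.03% to 14.2% of A2 day 6 and 1.39% to 1.52% of FBS day 6.

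Dusp6, the ERK phosphatase of the cytoplasm, was the member that followed the medium most closely. The 16 libraries with 2i had a lowest, median and highest Dusp6 level of 6.11, 20.1 and 29.6 CPM, and the 16 libraries without 2i had 41.0, 71.0 and 159 CPM. Every library with 2i, fibroblast or ESC, lay below every library without it. Of the 13229 genes tested, 5 (0.0378%) were separated in this direction. The other 4, named here after their values were seen, were Dbn1, Map1a, Rarg (a retinoic acid receptor) and Shc1, the adaptor that links receptors to RAS. A further 11 genes (0.0832%) had every library with 2i above every library without it. The group means of Dusp6 ran in the order A2S day 6 (7.82 ± 2.42 CPM, SD, n = 2), ESCs in A2S (7.97 ± 2.28), A2S day 2 (13.4 ± 2.5), S2 day 6 (19.0 ± 4.7), A2S day 4 (23.1 ± 1.6), A2 day 4 (23.4 ± 0.3), A2 day 6 (23.6 ± 1.9) and S2 day 4 (23.9 ± 8.1). The groups without 2i followed, with FBS day 3 (48.4 ± 10.4), ESCs (50.0 ± 6.2), AS day 4 (54.9 ± 18.9), MEFs (61.2 ± 2.5), FBS day 9 (78.3 ± 6.5), FBS day 6 (83.9 ± 0.5), AS day 6 (98.8 ± 3.8) and FBS day 12 (153 ± 9). Neighbours in this order differed by less than the larger of their SDs between A2S day 6 and ESCs in A2S, from S2 day 6 to S2 day 4, from FBS day 3 to MEFs and between FBS day 9 and FBS day 6.

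**Figure D1:**
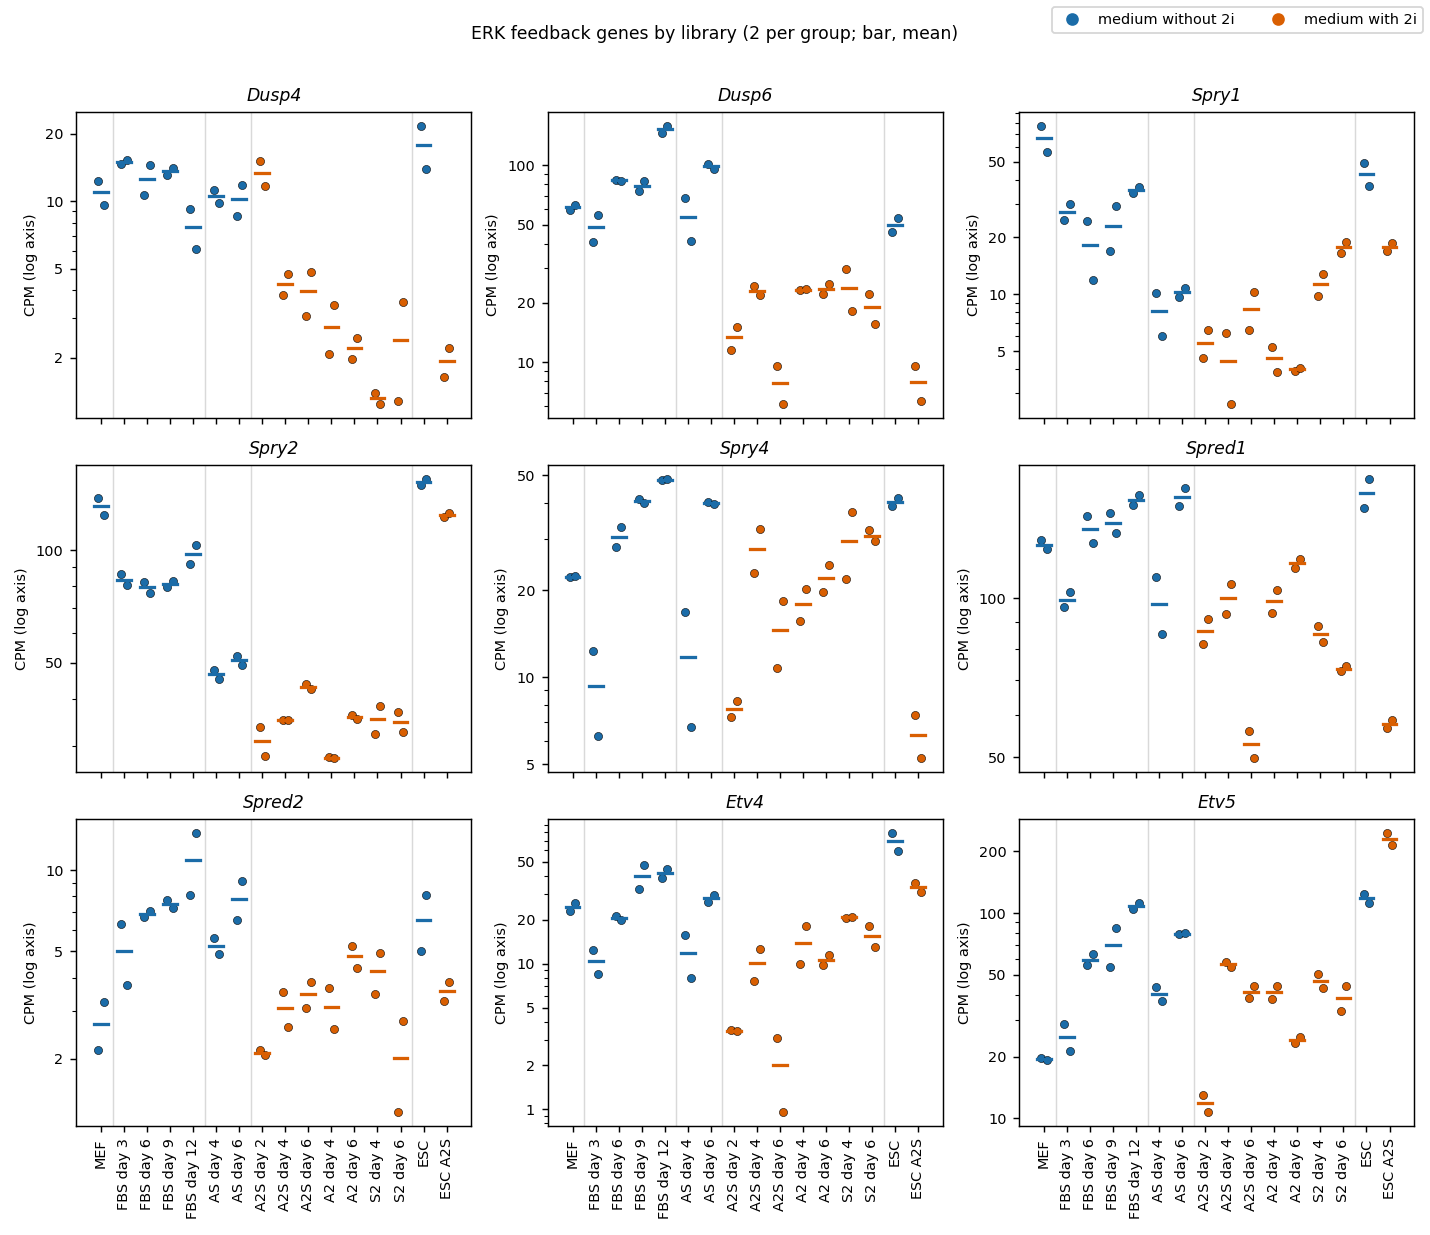
Level of each tested ERK feedback gene (CPM, log axis) in each of the 32 libraries, by group, with the mean of the 2 libraries as a bar, in blue for media without 2i and in orange for media with 2i. In the Dusp6 panel all orange points (6.11 to 29.6 CPM) lie below all blue points (41.0 to 159 CPM), and in the Etv5 panel the ESCs in A2S (215 and 246 CPM) stand above all others.

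Spry2, a Sprouty gene, was separated in the same way within the reprogramming cultures and between the ESC groups, but not over fibroblast and ESC libraries together. Its level was 27.9, 35.1 and 44.0 CPM (lowest, median and highest) in the 14 reprogramming libraries with 2i and 45.3, 80.0 and 103 CPM in the 12 without. Spry2 and Dusp6 were thus 2 of the 131 genes (0.990% of those tested) with this separation among reprogramming libraries. The gap was narrow, because AS, which lacks 2i, was also low (45.3 to 52.2 CPM) beside the FBS libraries (77.0 to 103 CPM). The other 7 tested members overlapped between media with and without 2i. For Dusp4, the overlap came from A2S day 2 (11.7 and 15.1 CPM), which did not differ beyond its error from FBS day 3 (14.6 and 15.3 CPM, log2 difference -0.17, 95% interval -0.73 to 0.39). The 12 later reprogramming libraries with 2i ranged from 1.24 to 4.83 CPM and the 12 without from 6.11 to 15.3 CPM. A2S day 2 was set apart here after its values were seen, and the share of all genes separated without it is not given.

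The start of the Dusp6 gene, at chr10:99263231-99267489 (GENCODE M21, mouse build GRCm38, plus strand), is shown because Dusp6 followed the medium most closely. Spred1, at chr2:117121374-117182279, is shown because its level followed that of Dusp6 most closely among the members, and Etv5, at chr16:22381309-22439719 on the minus strand, because it took another course in ESCs. Each window runs from 250 bases before to 50 bases after a start site in RefSeq (GRCm38.p6), in the gene's direction, with matches to a short ETS core (CGGAA or its reverse complement TTCCG) in capitals.
Dusp6, chr10:99262981-99263280, plus strand: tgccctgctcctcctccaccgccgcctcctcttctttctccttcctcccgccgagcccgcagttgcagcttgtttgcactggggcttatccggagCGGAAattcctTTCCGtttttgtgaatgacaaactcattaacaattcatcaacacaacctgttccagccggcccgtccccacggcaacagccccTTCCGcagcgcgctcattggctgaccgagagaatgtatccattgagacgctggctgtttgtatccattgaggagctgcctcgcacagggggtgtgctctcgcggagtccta
Spred1, chr2:117120821-117121120, plus strand: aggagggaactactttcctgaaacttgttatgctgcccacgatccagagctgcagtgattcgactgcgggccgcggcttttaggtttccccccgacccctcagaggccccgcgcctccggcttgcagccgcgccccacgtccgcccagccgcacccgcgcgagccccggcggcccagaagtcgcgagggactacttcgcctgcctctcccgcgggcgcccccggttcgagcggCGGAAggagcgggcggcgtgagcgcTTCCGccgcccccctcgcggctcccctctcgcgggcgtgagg
Etv5, chr16:22439521-22439820, minus strand: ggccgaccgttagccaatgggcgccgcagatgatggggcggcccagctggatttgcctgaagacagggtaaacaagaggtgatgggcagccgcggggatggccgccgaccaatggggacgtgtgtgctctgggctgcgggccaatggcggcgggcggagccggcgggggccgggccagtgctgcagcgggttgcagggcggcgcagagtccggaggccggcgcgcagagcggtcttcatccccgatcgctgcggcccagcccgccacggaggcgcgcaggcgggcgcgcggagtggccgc
RefSeq windows were found for 7 of the 10 members, 8 windows in all. ETS factors bind a GGAA core and are a known end point of ERK signalling. The longer ETS core CCGGAAG was in 0 of the 8 windows and in 8.86% of all 32851 promoter windows, on either strand. The AP-1 motif, searched as TGACTCA and TGAGTCA, was also in 0 of the 8, against 5.20% of all windows. The serum response element was in the window of Dusp5 only, with 2 adjacent matches starting 82 and 72 bases before the start site, against 1.63% of all windows. The short core, which the longer one contains, was searched after the longer one had given no match. It was in 5 of the 8 windows, against 29.9% of all windows, and these belong to 5 of the 7 members. Dusp6 had 3 matches, starting 155, 144 and 61 bases before the start site, Spred1 and Spred2 had 2 each, and Dusp5 and Spry2 had 1 each. Spry1 and both windows of Etv5 had none. A match is a description of letters in these windows, not a bound site.

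At day 6, most of the set was lower in A2S than in AS, the same medium without 2i. Of the 9 tested members, 7 were lower in A2S than in AS and none was higher, where 20.9% of all tested genes were lower and 17.7% were higher. The median log2 fold change over the 9 was -1.35, beside 0.00 over all genes. Dusp6 was at 9.53 and 6.11 CPM in the 2 A2S libraries and at 101 and 96.0 CPM in the 2 AS libraries, a log2 fold change of -3.65 ± 0.24 (adjusted p = 3.24e-13). Etv4 was at 3.07 and 0.965 CPM (10 and 3 UMIs) against 26.3 and 29.8 CPM (-3.75 ± 0.40, adjusted p = 5.46e-09). For both genes, the groups were far apart. Dusp4 was at 3.07 and 4.83 CPM in A2S against 8.61 and 11.8 CPM in AS (-1.35 ± 0.36, adjusted p = 0.00345).

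Among the inhibitors that act above RAF, Spred1 was at 56.0 and 49.9 CPM in A2S day 6 against 149 and 161 CPM in AS day 6 (-1.55 ± 0.12, adjusted p = 6.98e-12). Spry4 was at 10.8 and 18.3 CPM against 40.4 and 39.6 CPM (-1.46 ± 0.27, adjusted p = 6.57e-05). In both genes the libraries of each group lay on their own side. Spred2, the other Spred gene, was at 3.07 and 3.86 CPM against 6.52 and 9.13 CPM (-1.15 ± 0.39, adjusted p = 0.0202). Etv5, the relative of Etv4, was lower by less, at 38.7 and 44.1 CPM against 79.0 and 79.8 CPM (-0.94 ± 0.16, adjusted p = 1.69e-05). Spry1 (-0.29, 95% interval -1.02 to 0.45) and Spry2 (-0.23, interval -0.48 to 0.02) did not pass the test. The Dusp4 call was lost without A2S day 6 A (adjusted p = 0.0655), and that of Spred2 without A2S day 6 A (0.125), A2S day 6 B (0.0571) or AS day 6 B (0.15). Cell makeup differed in the same contrast: the 10 fibroblast markers summed to 1033 to 1261 CPM in A2S and 3770.5 to 3806 CPM in AS, the 10 pluripotency markers to 876 to 1017 CPM and 263 to 336 CPM, and the 8 epithelial markers to 863 to 888 CPM and 213 to 243 CPM. The members are given below for cells with no Epcam or Nanog UMI.

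At day 4 the same contrast was mixed: 3 of the 9 members were lower in A2S than in AS (15.9% of all genes tested) and 2 were higher (14.1%), with a median of -0.40 beside 0.00 over all genes. Dusp6 was at 24.3 and 22.0 CPM against 68.2 and 41.5 CPM (-1.16 ± 0.22, adjusted p = 0.000147) and Dusp4 at 3.81 and 4.72 CPM against 11.2 and 9.81 CPM (-1.31 ± 0.37, adjusted p = 0.00793), so both ERK phosphatases were already lower. Spry2 was lower by a small amount, at 35.1 CPM in both A2S libraries against 47.9 and 45.3 CPM (-0.40 ± 0.13, adjusted p = 0.0228). Spry4 went the other way, at 22.9 and 32.5 CPM in A2S against 16.8 and 6.69 CPM in AS (1.39 ± 0.32, adjusted p = 0.00106). Etv5 was also higher, at 58.0 and 54.5 CPM against 43.8 and 37.2 CPM (0.51 ± 0.17, adjusted p = 0.0229). Spred1 (0.05, 95% interval -0.19 to 0.29), Etv4 (-0.18, interval -0.91 to 0.55), Spry1 (-0.59, interval -1.49 to 0.32) and Spred2 (-0.68, interval -1.59 to 0.22) did not pass the test.

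The 2 libraries of AS day 4 stood apart from each other. AS day 4 B was lower than A in all 9 tested members, most of all in Spry4 (6.69 against 16.8 CPM) and Etv4 (8.03 against 15.8 CPM). The share of all genes lower in AS day 4 B than in A is not given, so this may not be particular to the members. It had 236 cells against 139 and a higher median depth (18868 against 14011 UMIs per cell), whose part in these values was not tested. Without AS day 4 B, the calls of Spry2 (adjusted p = 0.0759), Spry4 (log2 fold change 0.67, adjusted p = 0.188) and Etv5 (adjusted p = 0.264) were lost and 2 members were called. Without A2S day 4 A, those of Dusp4 (adjusted p = 0.129), Spry2 (0.134) and Etv5 (0.168) were lost, and that of Spry2 also without A2S day 4 B (0.0694) or AS day 4 A (0.0682). The Dusp6 call was kept without any 1 of the 4 libraries.

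The log2 fold change of A2S against AS was lower at day 6 than at day 4 for 5 of the 9 members. This was by the test of the difference itself (10.9% of all genes tested, 7.14% in this direction and 3.74% in the other). In 2 of the 5 a call changed sign, from 1.39 to -1.46 for Spry4 and from 0.51 to -0.94 for Etv5. For Etv4, the log2 fold change at day 6 minus that at day 4 was -3.57 ± 0.57 (adjusted p = 6.99e-05). The change was -2.85 ± 0.42 for Spry4, -2.49 ± 0.35 for Dusp6, -1.60 ± 0.17 for Spred1 and -1.45 ± 0.23 for Etv5. Both sides moved: within AS, Spry4 went from 11.7 ± 7.2 to 40.0 ± 0.6 CPM, Etv4 from 11.9 ± 5.5 to 28.1 ± 2.4 CPM and Etv5 from 40.5 ± 4.6 to 79.4 ± 0.6 CPM, while within A2S all 3 genes had a lower mean at day 6. Dusp4 stayed at a log2 difference of -1.31 and -1.35 at the 2 days (change -0.04, 95% interval -1.13 to 1.04).

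**Figure D2:**
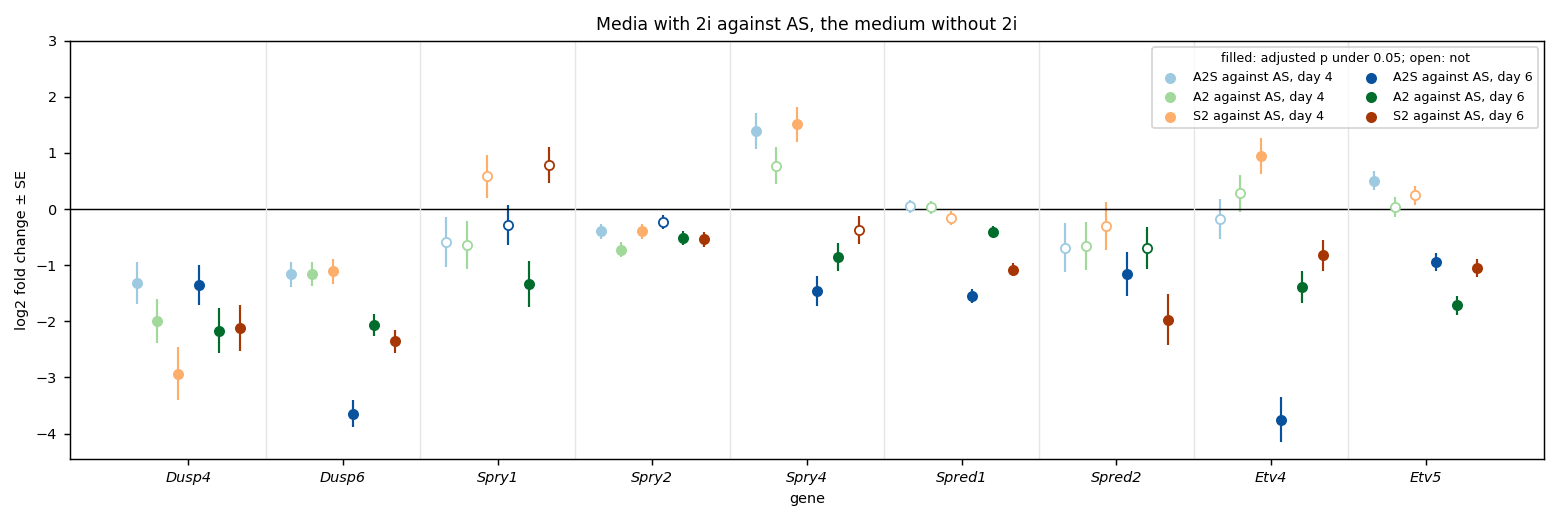
Log2 fold change ± SE of each tested member in A2S, A2 and S2, the media with 2i, against AS, the medium without 2i, at day 4 (pale) and day 6 (dark), with filled points for an adjusted p under 0.05. Dusp4 and Dusp6 are below 0 in all 6 comparisons, and Spry4, Etv4 and Etv5 move down from day 4 to day 6 in all 3 media.

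A2 and S2 also hold 2i, but each differs from AS by a second substance: A2 has no SGC0946 and S2 has no ascorbic acid. They share the AS libraries with the comparisons above, so their values stand beside those and are not independent of them. At day 6, 8 of the 9 members were lower in A2 than in AS (11.1% of all genes) and 7 were lower in S2 (17.3%), with none higher in either (7.47% and 13.6% of all genes). Dusp6 was at 22.2 and 25.0 CPM in A2 day 6 (-2.06 ± 0.20, adjusted p = 5.31e-09) and at 22.3 and 15.7 CPM in S2 day 6 (-2.36 ± 0.21, adjusted p = 3.51e-10). Dusp4 was at 1.96 and 2.45 CPM in A2 day 6 (-2.16 ± 0.40) and at 1.28 and 3.54 CPM in S2 day 6 (-2.11 ± 0.41), with adjusted p = 0.000176 and 0.000181. Etv5 was at 23.2 and 25.0 CPM in A2 day 6 (-1.71 ± 0.17) and at 33.5 and 44.0 CPM in S2 day 6 (-1.05 ± 0.16). These 3 genes were below both AS day 6 libraries in all 4 libraries of A2 and S2, and the share of all genes that were so is not given here.

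For the Spred and Sprouty genes the values of both media are given side by side. Spred1 was at 114 and 119 CPM in A2 day 6 (-0.41 ± 0.11, adjusted p = 0.00692) and at 72.7 and 74.3 CPM in S2 day 6 (-1.08 ± 0.12, adjusted p = 1.29e-08). Spry1, at 9.65 and 10.8 CPM in AS day 6, was at 3.93 and 4.08 CPM in A2 day 6 (-1.34 ± 0.41, adjusted p = 0.0204), while in S2 day 6 it was at 16.6 and 18.9 CPM (0.79 ± 0.32, adjusted p = 0.0606). Whether A2 and S2 themselves differ was not tested. Spry4 was lower in A2 day 6 (-0.85 ± 0.25, adjusted p = 0.0158) and did not pass the test in S2 day 6 (-0.37, 95% interval -0.88 to 0.13). Etv4 was lower in both (-1.39 ± 0.28 in A2 and -0.83 ± 0.27 in S2), and so was Spry2 (-0.51 ± 0.12 and -0.54 ± 0.13). Spred2 was lower in S2 (-1.97 ± 0.45, adjusted p = 0.00105) and not called in A2 (-0.69, interval -1.45 to 0.06). Leaving out AS day 6 B ended 3 of the A2 calls (Spry1, adjusted p = 0.0926, Spry4, 0.0589, and Spred1, 0.0793), AS day 6 A also 3 (Spry1, 0.0645, Spry2, 0.0532, and Spry4, 0.0836), A2 day 6 A 3 (Spry1, 0.104, Spry4, 0.159, and Spred1, 0.0756) and A2 day 6 B that of Spry1 (0.104). In S2, the Etv4 call was lost without S2 day 6 B (0.187) or AS day 6 B (0.103), and the Spred2 call without S2 day 6 A (0.0576).

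At day 4, Dusp4, Dusp6 and Spry2 were lower in A2 and in S2 than in AS. A2 had no other call (3 lower against 9.57% of all genes), and S2 also had Spry4 and Etv4 higher (3 lower against 15.3% and 2 higher against 13.3%). Dusp4 was at 2.07 and 3.43 CPM in A2 day 4 (-1.99 ± 0.39) and at 1.39 and 1.24 CPM (4 and 3 UMIs) in S2 day 4 (-2.93 ± 0.47, adjusted p = 1.57e-05). Dusp6 was at 23.2 and 23.6 CPM in A2 day 4 (-1.16 ± 0.22) and at 29.6 and 18.2 CPM in S2 day 4 (-1.11 ± 0.22). Spry4 was at 15.6 and 20.2 CPM in A2 day 4 (0.77, 95% interval 0.10 to 1.44, adjusted p = 0.11) and at 21.9 and 37.1 CPM in S2 day 4 (1.51 ± 0.31, adjusted p = 0.000384). Etv4 was at 20.5 and 21.0 CPM in S2 day 4 (0.95 ± 0.31, adjusted p = 0.022). Without AS day 4 B, Spry4 (0.79, adjusted p = 0.115), Etv4 (0.40, adjusted p = 0.527) and Spry2 (adjusted p = 0.0849) were no longer called in S2. Spry2 in S2 was also lost without S2 day 4 A (0.294) or AS day 4 A (0.0702), and Etv4 without S2 day 4 A (0.0836) or B (0.0712), whereas Spry4 in A2 was called without AS day 4 A (1.37, adjusted p = 0.00528).

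Against fibroblasts with no small molecule at day 6, all 9 tested members were lower in A2S (26.2% of all genes tested) and none higher (26.4%), 2 of them, Spred2 (adjusted p = 0.0865) and Etv5 (0.0718), not with library totals in place of TMM factors. Dusp6 was at 84.3 and 83.5 CPM in FBS day 6 (-3.41 ± 0.25, adjusted p = 5.84e-13), Etv4 at 21.2 and 19.8 CPM (-3.31 ± 0.42, adjusted p = 9.02e-08) and Spred1 at 143 and 127 CPM (-1.36 ± 0.12, adjusted p = 6.24e-11). A2 and S2 had 6 members lower each (18.5% and 23.5% of all genes tested) and none higher (18.4% and 24.1%), against the same FBS libraries. AS, which holds both other substances and no 2i, had 2 lower (12.8%) and 1 higher (13.6%). Dusp6 did not pass the test in AS against FBS (0.24, 95% interval -0.11 to 0.59), nor did Dusp4 (-0.28, interval -0.91 to 0.34), Spry4, Spred1, Spred2 or Etv4. Cell makeup differed between A2S and FBS too: cells with an Epcam or Nanog UMI made up 71.7% to 81.7% of A2S day 6 and 1.39% to 1.52% of FBS day 6. Over cells with no such UMI, only Dusp6, Spry2 and Etv4 were called lower in A2S, with the calls over all genes given below.

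Both Sprouty genes with a call in AS were also lower in A2S. Spry2 was at 82.3 and 77.0 CPM in FBS day 6, at 52.2 and 49.4 CPM in AS day 6 (-0.65 ± 0.12, adjusted p = 8.57e-05) and at 44.0 and 42.5 CPM in A2S day 6 (-0.89 ± 0.12, adjusted p = 2.13e-07). The fall from FBS was thus present in the medium without 2i. Spry1 was at 24.3 and 11.9 CPM in FBS day 6, and its calls in AS (-0.89 ± 0.32) and A2S (-1.18 ± 0.33) were lost without FBS day 6 A (adjusted p = 0.774 and 0.384). Etv5 was higher in AS (0.43 ± 0.15, adjusted p = 0.0344) and lower in A2S (-0.51 ± 0.17, adjusted p = 0.011). In AS, Etv5 was lost without any 1 of the 4 libraries (adjusted p from 0.055 to 0.276) and Spry1 also without AS day 6 A (adjusted p = 0.176) or AS day 6 B (0.0862), which leaves 1 call in each case but that of FBS day 6 B. In A2S, without A2S day 6 A, 5 members were called, as Spry1 (0.0723), Spry4 (0.0781), Spred2 (0.191) and Etv5 (0.101) were lost. Without FBS day 6 B, Etv5 (0.0979) was lost, and Spred2 was lost without any 1 of the 4 libraries (0.0818 to 0.191). In A2, Etv4 was lost without A2 day 6 A (0.0893) or FBS day 6 A (0.0992), and in S2, without S2 day 6 A, Spred2 (0.0704) and Etv5 (0.121) were lost.

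**Figure D3:**
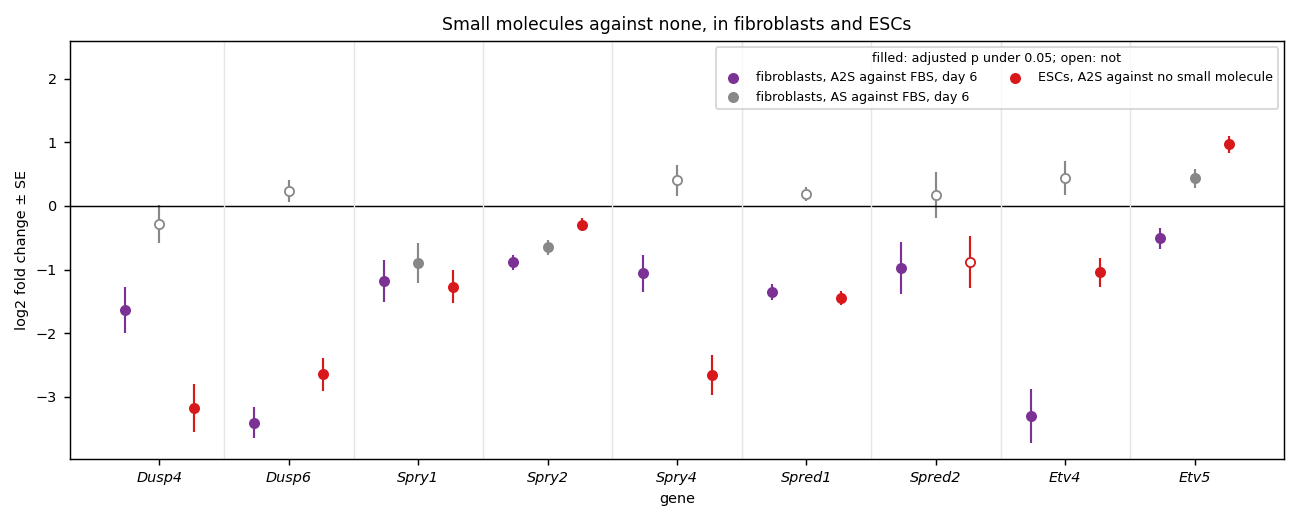
Log2 fold change ± SE of each tested member, over all kept cells, in fibroblast cultures in A2S (purple) or AS (grey) against no small molecule at day 6, and in ESCs in A2S against no small molecule (red), with filled points for an adjusted p under 0.05. All purple points are below 0 and filled, 6 of the 9 grey points are open, and Etv5 is the one member with the ESC point above 0 (0.97).

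In the first days, most members were below their level in MEFs, and more so with the small molecules. Against MEFs, 7 of the 9 tested members were lower in A2S day 2 (24.2% of all genes tested) and 5 in FBS day 3 (20.9%). With library totals in place of TMM factors, FBS day 3 had 4 lower and 2 higher, as Spred1 was not called (adjusted p = 0.224) and Spred2 (1.05) and Etv5 (0.53) were called higher. Both were also called higher with the listed feeder cells kept. Listed feeders, dropped here, were 26.9% to 35.8% of the barcodes of FBS day 3, 22.8% to 27.2% of A2S day 2 and 2.93% to 3.25% of MEFs. Whether unlisted feeder cells or free RNA of feeders remained was not tested. The 10 fibroblast markers summed to 11375 to 12319 CPM in MEFs, 5035 to 5051 CPM in FBS day 3 and 2839 to 2986 CPM in A2S day 2 (9 of 10 lower in each), and the 8 macrophage and blood markers to 12.8 to 16.5, 69.5 to 87.4 and 51.2 to 76.0 CPM, and their part in the members' values was not tested. Spry1, at 77.7 and 56.4 CPM in MEFs, was at 24.7 and 29.7 CPM in FBS day 3 (-1.30 ± 0.23) and at 4.58 and 6.43 CPM in A2S day 2. Spry2 was at 138 and 124 CPM in MEFs, at 86.3 and 80.4 CPM in FBS day 3 (-0.65 ± 0.10) and at 33.7 and 28.2 CPM in A2S day 2 (-2.08 ± 0.11, adjusted p = 4.13e-16). Both genes stepped down from group to group without overlap. Etv4 was at 22.9 and 26.1 CPM in MEFs, at 12.3 and 8.45 CPM in FBS day 3 (-1.23 ± 0.27) and at 3.50 and 3.44 CPM in A2S day 2 (-2.81 ± 0.32). Dusp6 fell from 59.4 and 63.0 CPM to 11.6 and 15.1 CPM in A2S day 2 (-2.18 ± 0.21) and did not pass the test in FBS day 3 (41.0 and 55.7 CPM, -0.35 ± 0.18, adjusted p = 0.121), where without FBS day 3 B it was called (-0.58, adjusted p = 0.0418). Dusp4 passed the test in neither, at 12.3 and 9.59 CPM in MEFs. A2S day 2 was lower than FBS day 3 in 6 of the 9 members (12.6% of all genes tested) and higher in none, among them Dusp6 (-1.84 ± 0.22) and Spry2 (-1.43 ± 0.12), but these groups differ in day as well as in medium. Without A2S day 2 B, the Etv5 call against MEFs was lost (adjusted p = 0.0726), and in FBS day 3 that of Spred1 was lost without FBS day 3 A (0.0997) and that of Spry4 without FBS day 3 B (0.051), where Spred2 (1.19) and Etv5 (0.55) were called higher. In A2S day 2 against FBS day 3, Etv4 (0.0751) was lost without FBS day 3 A, and Spred2 without FBS day 3 A (0.344) or either A2S library (0.108 and 0.139). Dusp5, the other nuclear ERK phosphatase, had 21 UMIs in MEFs (1.49 and 1.56 CPM), 6 in FBS day 3, 3 in A2S day 2 and 0 in FBS days 6, 9 and 12, AS day 6, A2 day 6 and S2 day 6. In FBS day 6, a count of 0 allows a level of up to 0.512 CPM.

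Without small molecules, most members then rose. From day 3 to day 12 in FBS, 6 of the 9 were called higher (23.5% of all genes tested) and 1 lower (22.2%). Dusp6 went from 41.0 and 55.7 CPM to 146 and 159 CPM (1.66 ± 0.18, adjusted p = 7.85e-09). Spry4 went from 12.3 and 6.26 CPM to 47.9 and 48.4 CPM (2.35 ± 0.30) and Etv5 from 28.7 and 21.3 CPM to 104 and 112 CPM (2.11 ± 0.17, adjusted p = 2.28e-11). In each, both day 12 libraries were above both day 3 libraries. Etv4 (2.00 ± 0.29), Spred1 (0.63 ± 0.12) and Spred2 (1.12 ± 0.38) were also higher, Spred2 not without FBS day 3 B (adjusted p = 0.151) or FBS day 12 B (0.323). Dusp4 was lower, at 9.23 and 6.11 CPM against 14.6 and 15.3 CPM (-0.98 ± 0.34, adjusted p = 0.0201), a call lost without FBS day 3 B (0.0649) or FBS day 12 B (0.196). Cells with an Epcam or Nanog UMI went from 0.418% to 1.74% at day 3 to 17.8% to 18.4% at day 12, and their part in this course was not tested.

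From day 2 to day 6 in A2S, 3 members were higher (24.4% of all genes tested) and 3 lower (26.1%). Etv5 went from 12.9 and 10.8 CPM to 38.7 and 44.1 CPM (1.81 ± 0.20, adjusted p = 7.47e-09), and Spry2 (0.49 ± 0.13) and Spry4 (0.89 ± 0.34) were also higher. Dusp4 went from 15.1 and 11.7 CPM to 3.07 and 4.83 CPM (-1.75 ± 0.34, adjusted p = 7.87e-05), Spred1 from 81.9 and 91.3 CPM to 56.0 and 49.9 CPM (-0.71 ± 0.12), and Dusp6 from 11.6 and 15.1 CPM to 9.53 and 6.11 CPM (-0.78 ± 0.31, adjusted p = 0.0381). The Spry4 call was lost without A2S day 2 A (adjusted p = 0.112), A2S day 2 B (0.0681) or A2S day 6 B (0.352), that of Dusp6 without A2S day 2 B (0.26) or A2S day 6 B (0.355), and that of Spry2 without A2S day 2 B (0.0633), which left 3 calls. Over cells with no Epcam or Nanog UMI, 3 members were called and the value was 0.74 for Dusp6 (adjusted p = 0.162) and 0.30 for Spred1 (adjusted p = 0.151), of the opposite sign. The number of calls over all genes in these cells is not given here. Spred2 and Etv4, called in neither set of cells, changed sign too.

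In ESCs, most members were lower with A2S and Etv5 was higher. The ESC groups differ by all the small molecules of A2S, not by 2i alone. Of the 9 tested, 7 were lower in ESCs in A2S than in ESCs without small molecules (21.5% of all genes tested) and 1 was higher (25.2%), with a median of -1.27 beside 0.04 over all genes. Dusp4 was at 1.64 and 2.21 CPM against 21.8 and 13.9 CPM (-3.18 ± 0.38, adjusted p = 3.97e-08). Spry4 was at 7.39 and 5.25 CPM against 38.9 and 41.5 CPM (-2.66 ± 0.31, adjusted p = 2.57e-08). Dusp6 was at 9.58 and 6.35 CPM against 45.6 and 54.3 CPM (-2.65 ± 0.26, adjusted p = 5.89e-10). These 3 were the members with the largest fall in ESCs, and in none did the groups come near each other. Spred1 was at 56.9 and 58.8 CPM against 148 and 168 CPM (-1.45 ± 0.12, adjusted p = 1.12e-11), Spry1 at 17.0 and 18.5 CPM against 49.0 and 37.1 CPM (-1.27 ± 0.26), and Etv4 at 35.6 and 31.2 CPM against 79.1 and 59.1 CPM (-1.04 ± 0.22, adjusted p = 0.000291). Spry2, at 123 and 125 CPM against 149 and 155 CPM, fell little (-0.29 ± 0.10, adjusted p = 0.0171), a call lost without ESC B (0.105), ESC A2S A (0.0906) or ESC A2S B (0.0579). Spred2 did not pass the test (-0.88, 95% interval -1.71 to -0.05, adjusted p = 0.0748), and did without ESC A (-1.17, adjusted p = 0.0476) and with library totals (-1.01).

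Etv5 rose in the same ESC libraries, from 123 and 112 CPM to 246 and 215 CPM (0.97 ± 0.13, adjusted p = 4.78e-07). Its level in ESCs in A2S was the highest of any group, and it was called under each alternative run. ESCs without small molecules were already above MEFs in Etv5 (2.59 ± 0.16, adjusted p = 1.21e-15) and in Etv4 (1.49 ± 0.22, adjusted p = 4.23e-07). Between these cell types 7 members were higher in ESCs and 1 lower, beside 36.3% and 35.5% of all genes tested. Without ESC B, 4 of these 8 calls were left, and without MEF A or MEF B, 5 were. Of the relatives, Etv1, the third gene of this ETS subfamily, was also higher in ESCs in A2S (29.8 against 16.9 CPM, 0.81 ± 0.30, adjusted p = 0.0248). The fibroblast markers summed to 73.8 to 93.6 CPM in ESCs in A2S (none of 10 at 0) and to 18.7 to 22.6 CPM in ESCs (3 to 4 of 10 at 0), and the pluripotency markers to 4931 to 4938 CPM and 4887 to 4986 CPM, and their part in these values was not tested. Listed feeders, dropped here, were 10.9% to 14.2% of the barcodes of ESCs in A2S and 3.50% to 3.53% of those of ESCs.

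The change that A2S made in ESCs was set against the change from FBS to A2S at day 6 in reprogramming fibroblasts, by the test of the difference (48.7% of all genes tested differed, 23.0% with the higher value in ESCs and 25.8% with the lower). Of the 9 members, 5 differed, 3 with the higher value in ESCs and 2 with the lower. Etv4 fell by 2.27 ± 0.51 less in ESCs on the log2 scale (adjusted p = 0.000441), Etv5 differed by 1.48 ± 0.21 (adjusted p = 1.05e-06) and Spry2 by 0.59 ± 0.16 (adjusted p = 0.00209), all toward ESCs. Spry4 (-1.60 ± 0.44, adjusted p = 0.00305) and Dusp4 (-1.54 ± 0.56, adjusted p = 0.0233) fell further in ESCs. Dusp6 (0.76, 95% interval -0.05 to 1.58) and Spred1 (-0.09, interval -0.44 to 0.25) did not pass the test, nor did Spry1 or Spred2. The days of treatment differ, since the ESCs were labelled day 2, and the starting cells are not the same. Cells with an Epcam or Nanog UMI made up 71.7% to 81.7% of A2S day 6 and 1.39% to 1.52% of FBS day 6. Over cells with no such UMI, A2S against FBS was at -0.04 for Spry4 and -0.23 for Etv5 (-1.06 and -0.51 over all cells). It was at -2.21 for Etv4, -1.45 for Dusp4 and -1.28 for Spry2 (-3.31, -1.64 and -0.89 over all cells). The test of the difference was not run on those cells. The Dusp4 call was lost without A2S day 6 B (adjusted p = 0.15), ESC A (0.101), ESC A2S A (0.0942) or FBS day 6 A (0.0754), and that of Spry4 without A2S day 6 B (0.0546), which left 3 calls. With library totals in place of TMM factors, Spry2 was not called (0.31, adjusted p = 0.0937).

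Because pluripotent and epithelial cells were more frequent in A2S than in AS, the sums were also made over fibroblast-culture cells with no UMI of Epcam or Nanog. A cell of low depth can lack a UMI of both by chance, so this lowers the share of such cells and does not remove them. At day 6 it left 42 and 73 cells of A2S and 186 and 145 of AS. Dusp6 was then at 24.5 and 17.2 CPM (12 and 11 UMIs) in A2S and at 90.4 and 87.9 CPM in AS (-2.13 ± 0.31), and Spred1 at 104 and 101 CPM against 154 and 177 CPM (-0.69 ± 0.15). These 2 members were called lower, down from 7 over all cells, while the lower calls over all genes went from 2765 to 835. The log2 fold change was -0.11 ± 0.36 for Spry4 (-1.46 over all cells), -1.84 ± 0.66 for Etv4 on 5 UMIs in A2S (-3.75 over all cells) and -0.41 ± 0.25 for Etv5 (-0.94 over all cells). All 9 had a negative value in both sets of cells, though 2 of them were called in the smaller set. The median over all genes tested was 0.00 over all cells, and the share of genes with a negative value is not given.

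At day 4, 4 of the 5 calls were also made in these cells, whose number of calls over all genes is not given here. Dusp6 (-1.07 ± 0.24), Dusp4 (-1.82 ± 0.47) and Spry2 (-0.80 ± 0.18) were lower and Spry4 (1.60 ± 0.34) higher, as over all cells, and Etv5 was no longer called (0.26 ± 0.21). Among such cells at day 6, A2 had 5 members lower than AS (1432 of all genes, 1464 over all cells) and S2 had 4 (1389 of all genes, 2285 over all cells). A2S had 3 lower than FBS (1345 of all genes, 3472 over all cells), where Dusp6 was at -2.04 ± 0.31, Spry2 at -1.28 ± 0.21 and Etv4 at -2.21 ± 0.63. Of the differences between day 6 and day 4, 1 member was still called, Spry4, and the lower calls over all genes went from 945 to 271.

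**Figure D4:**
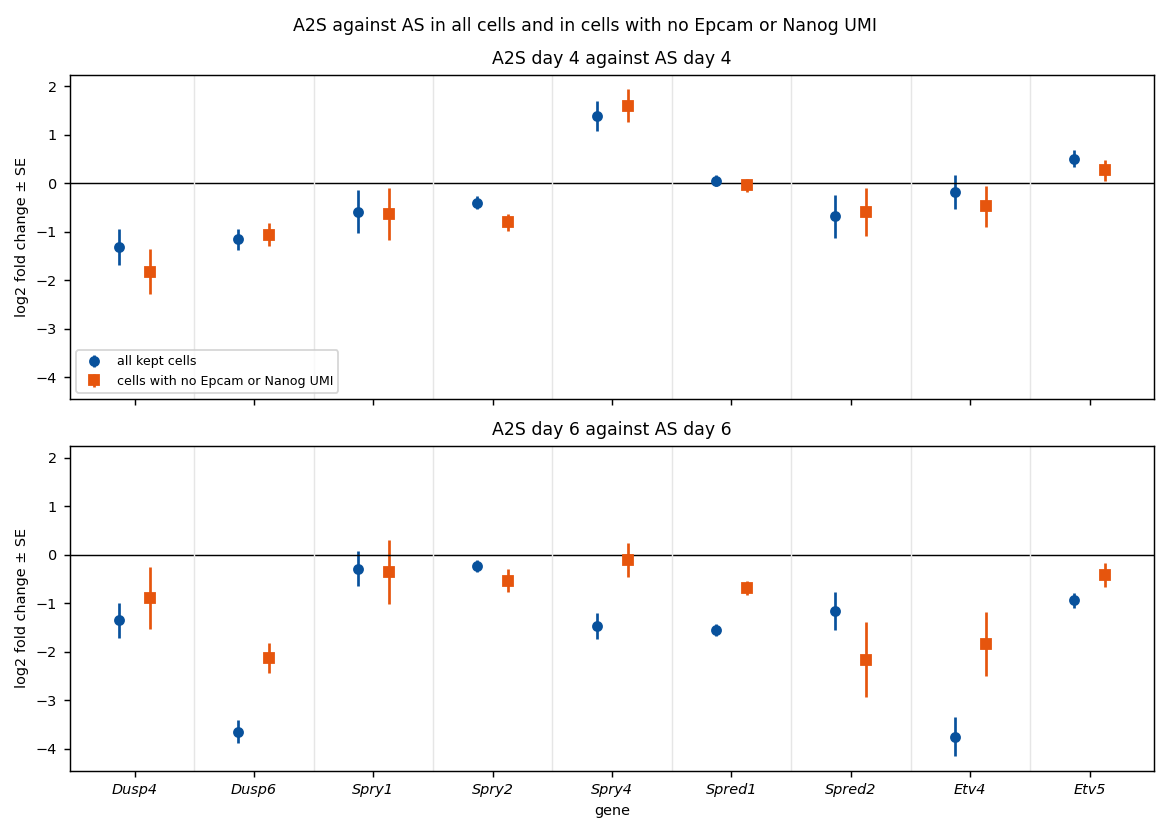
Log2 fold change ± SE of each tested member in A2S against AS at day 4 (upper panel) and day 6 (lower panel), over all kept cells (blue circles) and over cells with no Epcam or Nanog UMI (orange squares). At day 6 the orange value of Dusp6 (-2.13), Etv4 (-1.84), Spred1 (-0.69) and Spry4 (-0.11) is nearer 0 than the blue one, and at day 4 Dusp6 is at -1.16 over all cells and at -1.07 over the others.

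The share of cells with a UMI of a member was read after each cell had been thinned to 3000 UMIs, leaving out shallower cells. Dusp6 was found in 24.5% to 26.7% of AS day 6 cells and in 2.21% to 2.82% of A2S day 6 cells (56.9% to 58.9% and 7.36% to 11.3% without thinning). In ESCs the share was 12.4% to 19.5%, and 2.16% to 2.98% in A2S (42.8% to 45.1% and 6.78% to 8.29% without thinning). Etv5 was found in 27.3% to 30.2% of ESCs and in 44.2% to 47.3% of ESCs in A2S (73.9% to 74.4% and 79.7% to 82.0% without thinning). As a background of free RNA, Col1a1, a collagen gene of fibroblasts, was found in 0.00% of ESCs and 1.79% to 3.60% of ESCs in A2S, and Nanog in 0.00% to 0.714% of MEFs. The Dusp6 shares in A2S day 6 and in ESCs in A2S lay within the range of Col1a1 in ESCs in A2S, and above that of Col1a1 in ESCs and of Nanog in MEFs. The summed fibroblast markers were also higher in ESCs in A2S than in ESCs, and their part in the Col1a1 share was not tested. In MEFs the 10 fibroblast markers, Col1a1 among them, summed to 11375 to 12319 CPM, while Dusp6 was at 59.4 and 63.0 CPM. Free RNA of Col1a1 and of Dusp6 can thus differ in amount. How much of these low Dusp6 shares is background was not tested. The Dusp6 levels of these groups, 6.11 to 9.58 CPM, rest on the same UMIs. Median depths were 10112 and 12251 UMIs in ESCs in A2S, 12707.5 and 10864.5 in A2S day 6, 16461.5 and 14853 in ESCs and 22796 and 19102 in MEFs. After thinning, UMIs of at least 4 different members were found in 7.79% to 11.6% of ESCs, 2.92% to 3.06% of AS day 6 cells and 0.00% to 0.442% of A2S day 6 cells (69.5% to 71.0%, 42.4% to 42.5% and 6.98% to 12.2% without thinning).

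Across the 16 group means, members moved together to different degrees. Pearson's r of log2 levels was highest between Dusp6 and Spred1 (0.89), then between Spry1 and Spry2 (0.87), and lowest between Dusp4 and Etv5 (-0.12). Dusp6 (0.80) and Etv4 (0.78) were closest to the mean of the other members, and Etv5 (0.39) and Dusp4 (0.45) farthest from it. The same libraries and depths underlie all of these points. Of 9435 genes at a mean of 10 CPM or more, the mean of the members was most like Zswim4 (r = 0.91) and Rarg (0.90). Dusp6 was most like Pcnx (0.90), Spry4 most like Ccni (0.88) and Etv5 most like Etv1 (0.91).

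The other genes of the pathway are given by class, to be read beside all genes tested, of which 15.9% were lower and 14.1% higher in A2S than in AS at day 4, 20.9% and 17.7% at day 6, and 21.5% and 25.2% in ESCs in A2S. Of 22 ERK-induced immediate-early and output genes, all tested, 12 were lower in A2S than in AS at day 4 and none higher, and at day 6 14 were lower and 2 higher, with medians of -0.87 and -0.92. Egr1, an immediate-early transcription factor, was at 2.80 ± 0.49 CPM against 116 ± 32 CPM at day 4 (-5.37 ± 0.39) and at 0.622 ± 0.425 CPM (4 UMIs) against 132 ± 1 CPM at day 6 (-7.63 ± 0.46). Ccnd1, the cyclin that carries growth signals into the cell cycle, was at 312 ± 2 CPM against 1131 ± 90.5 CPM at day 6 (-1.86 ± 0.10), and Fos, a partner in AP-1, at 11.2 ± 1.0 CPM against 86.8 ± 14.1 CPM (-2.96 ± 0.34). Klf10 (1.05 ± 0.16) and Epha4 (1.13 ± 0.30) were the 2 higher ones. Between AS and FBS at day 6, neither with 2i, 10 of the 22 were lower in AS and 1 higher (median -0.32). Of all genes tested, 12.8% were lower and 13.6% higher in that comparison.

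In ESCs, 12 of these 22 were lower in A2S and 3 higher (median -0.67). Fosb, at 2.47 against 115 CPM (-5.52 ± 0.59), Fos (-2.51 ± 0.25) and Myc (-2.10 ± 0.22) were lower. Egr1 rose in ESCs, from 54.2 ± 3.9 to 163 ± 17 CPM (1.59 ± 0.22), as did Emp1 (1.21 ± 0.26) and the ephrin receptor gene Epha4 (3.84 ± 0.25). Egr1 thus had opposite signs in the fibroblast and ESC comparisons, whose controls differ.

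The kinases and adaptors of the core cascade had medians near 0 in A2S against AS. Of 25 tested, 2 were higher and 5 lower in A2S than in AS at day 4, 4 higher and 5 lower at day 6, and 4 higher and 11 lower in ESCs, with medians of -0.11, -0.07 and -0.20. The counts at day 6 were close to the shares over all genes. In ESCs the 11 lower of 25 stood beside 21.5% of all genes, and the median of -0.20 beside 0.04. Map2k1, which encodes MEK1 and is named after its values were seen, was higher in A2S than in AS at day 6 (0.65 ± 0.10). In ESCs, Mapk3, which encodes ERK1 and was also named after its values were seen, fell from 79.7 ± 6.8 to 28.6 ± 1.8 CPM (-1.48 ± 0.18). Growth factors and their receptors were 3 higher and 10 lower of 21 tested at both days (medians -1.04 and -1.14). Ereg, an EGF receptor ligand, was at 14.7 against 95.2 CPM at day 4 (-2.55 ± 0.26), while Fgf4 was higher in A2S at day 4 (1.13 ± 0.21) and day 6 (1.40 ± 0.17). Fibroblast markers were lower in the same contrasts (8 and 9 of 10), and their part in these counts was not tested. Between AS and FBS at day 6, neither with 2i, 7 of the 21 growth factors and receptors were lower in AS and 1 higher (median -0.42).

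Among 18 tested relatives of the members, 1 was higher and 6 lower at day 4, 2 higher and 7 lower at day 6, and 3 higher and 4 lower in ESCs. Dusp14, another phosphatase gene, was at 86.5 ± 14.6 CPM in A2S day 6 against 393 ± 78 CPM in AS day 6 (-2.18 ± 0.16), and in ESCs it rose from 25.6 ± 12.6 to 174 ± 3 CPM (2.74 ± 0.20). Dusp1, a stress-induced phosphatase gene, was lower in A2S than in AS at day 4 (-1.27 ± 0.19). GSK3 is the other target of 2i, and of 12 tested Wnt target genes 9 were higher in A2S than in AS at both days and none lower (medians 3.09 and 3.32). Axin2, the negative regulator that Wnt signalling induces, was at 23.0 against 1.40 CPM at day 4 (3.88 ± 0.36). A2 and S2 also hold 2i, and fewer of the 12 were called there. Against AS at day 4, 1 was higher in A2 and 5 in S2 (medians 0.40 and 1.14). At day 6, 5 were higher in A2 and 7 in S2 (medians 1.36 and 2.32), and 0 were lower in any of these comparisons. In ESCs 5 of the 12 were higher and 2 lower, with Axin2 at 42.9 against 8.77 CPM (2.28 ± 0.25) and Lef1 at 1.92 against 18.9 CPM (-3.27 ± 0.52).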

How the data were processed

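Single cells were captured on the ddSEQ system and counted with a 3′ kit, per the labels' protocols. The submitters' processing notes name bcl2fastq 2.19, STAR and the mm10 build, with the counter and annotation not given in the sources used here. The authors deposited a table of raw UMI counts per gene and cell for each library, and a list of feeder cells, here matched on barcode and group (684 of 8334 cells dropped). Doublets were not called. Counts were summed per library and fitted with edgeR 4.0.16 (R 4.3.3) in 1 quasi-likelihood model of 32 libraries, with TMM factors and filterByExpr. Intervals are 95%. A limit for a count of 0 is 3 UMIs over the group and covers counting error only. The members and lists were chosen with earlier results of these data known. All members were described, and from each pathway list up to 3 called genes a direction with the largest fold change at 10 CPM or more could be named. Likeness of patterns is Pearson's r of log2(CPM + 0.5) over group means, without a p. Alternatives were other scalings, no filter, DESeq2 1.42.0, other cell filters, a fit of the compared groups alone, a replicate block and leaving out each library. The fit was tested on simulated data. Promoters came from RefSeq and motifs were searched on both strands. Protein features were not analysed here.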

Additional observations from a re-analysis of the deposited data

Results flagged for a closer look

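Tests of the difference between effects singled out 10 values, 5 in each of 2 families. The change from AS to A2S differed between day 6 and day 4 in Dusp6 (-2.49 on the log2 scale), Spry4 (-2.85), Spred1 (-1.60), Etv4 (-3.57) and Etv5 (-1.45), each lower at day 6. Over cells with no Epcam or Nanog UMI, only Spry4 of these was still called (-1.71). Dusp6 (-1.06), Spred1 (-0.64), Etv4 (-1.37) and Etv5 (-0.68) were not. The change with A2S differed between ESCs and reprogramming fibroblasts at day 6 in Dusp4 (-1.54) and Spry4 (-1.60), which were lower by more in ESCs, and in Spry2 (0.59), Etv4 (2.27) and Etv5 (1.48), where the ESC value was the higher one. The adjusted p of edgeR's quasi-likelihood test was 0.0233 for Dusp4 and 0.00305 or less for the others.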

How the results depend on the processing

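Over 2268 alternative values of members, 2084 kept their side of the threshold (47 of them, called in neither fit, with the other sign), 160 lost a call, 22 gained one and 2 that were called had the other sign. These 2 were those of A2S day 6 against A2S day 2 over cells with no Epcam or Nanog UMI, at 0.74 for Dusp6 and 0.30 for Spred1; the cause was not tested. Over those cells the number of members called was 2 in place of 7 in A2S against AS at day 6, 5 in place of 8 in A2 against AS at day 6, 3 in place of 5 in S2 against AS at day 4, 4 in place of 7 in S2 against AS at day 6, 3 in place of 9 in A2S against FBS at day 6, 3 in place of 6 in A2S day 6 against day 2, and 1 in place of 5 for the difference between days. These sums rest on fewer cells. Calls over all genes in these cells are given above for part of the comparisons only. They are not given for single pairs fitted alone, DESeq2, no filter or 1 library left out. A loss of calls may thus not be particular to the members. When each pair of groups was fitted alone, 2 of 5 calls were left in A2S and 3 of 5 in S2 against AS at day 4. With DESeq2 these counts were 3 and 3, and they were 1 in place of 3 in AS against FBS at day 6 and 5 in place of 8 in ESCs against MEFs, where no filter on low counts also gave 5. The cause of these losses was not tested.

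Leaving out 1 library at a time, the number of members called ran from 2 to 4 (5 with all libraries) in A2S and in S2 against AS at day 4, 3 to 4 (3) in A2 at day 4, 5 to 7 (7) in A2S, 5 to 7 (8) in A2 and 6 to 7 (7) in S2 at day 6. Against FBS at day 6 it ran from 5 to 8 (9) in A2S, 5 to 6 (6) in A2, 4 to 6 (6) in S2 and 1 to 2 (3) in AS. It ran from 7 to 9 (8) in ESCs in A2S against ESCs, 6 to 7 (7) in A2S day 2 and 4 to 7 (5) in FBS day 3 against MEFs, 4 to 6 (6) in A2S day 2 against FBS day 3, 3 to 6 (6) in A2S day 6 against day 2, 5 to 7 (7) in FBS day 12 against day 3 and 4 to 6 (8) in ESCs against MEFs. It ran from 3 to 5 (5) for the difference between ESCs and fibroblasts and was 5 throughout for that between days. The replicate block, with the letter as a term, changed 0 of the 171 values' calls and left all counts as they were. The letters were not taken to pair the libraries: over 120 pairs of groups the correlation of deviations from the group means had a median of -0.00762 and ranged from -0.236 to 0.141. Library totals in place of TMM factors moved the median of all genes by 0.146 in A2S and 0.113 in AS against FBS at day 6, by -0.105 in ESCs in A2S against ESCs, by 0.207 in A2S day 2, 0.151 in FBS day 3 and 0.300 in ESCs against MEFs, and by -0.277 in the test of ESCs against fibroblasts. They moved the split of higher and lower calls over all genes from 3498 and 3472 to 4289 and 2848 in A2S and from 1797 and 1687 to 2484 and 1186 in AS against FBS at day 6, from 988 and 1464 to 731 and 1724 in A2 against AS at day 6, from 3332 and 2841 to 2708 and 3551 in ESCs in A2S against ESCs, from 3393 and 3199 to 4781 and 2402 in A2S day 2, from 2624 and 2769 to 3839 and 2009 in FBS day 3 and from 4803 and 4700 to 5928 and 3861 in ESCs against MEFs, and from 3039 and 3408 to 2222 and 4429 in the test of ESCs against fibroblasts. Library totals gave 4 values of members, called in neither fit, the other sign (Spred1 and Etv5 in A2 against AS at day 4, Dusp6 in ESCs against MEFs and Spred2 in the test of ESCs against fibroblasts), and RLE factors 0. The shares of cells with a UMI moved with the depth they were thinned to. Members at a few UMIs, Spred2 and Dusp4 in media with 2i and Etv4 in A2S day 6, were the least precise.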
